A study of Homo sapiens with 9 samples.

Results

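RUNX1, RUNX2 and RUNX3, the DNA-binding RUNX transcription factors, and CBFB, their shared partner subunit, were followed in cells that the labels call HT29, a colorectal cancer line of human origin in wide use. The 4 genes were chosen by symbol from a table of raw counts for 25886 gene symbols. An earlier look at these data had already shown RUNX2 to be higher in both knockdowns, so its values against Control are given as a description with no test. Its direct comparison between the knockdowns and all comparisons of RUNX1, RUNX3 and CBFB were tested among 16660 genes with enough counts, which included all 4.

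RNA was depleted of rRNA and sequenced in 9 libraries, 3 of Control, 3 of DNMT1 knockdown and 3 of DNMT3B knockdown. DNMT1 maintains DNA methylation through replication and DNMT3B can place it on unmethylated DNA. Cells of all 3 groups grew in medium with serum and carried the puromycin selection label, and the stable knockdowns were made with lentiviruses and selected for 3 passages. The column headers begin with shCTR, shDNMT1 and shDNMT3B, which name a control short hairpin RNA (shRNA) and hairpins against each target. The labels do not say which or how many hairpins were used, or whether the 3 libraries of a group came from separate cultures. The p-values therefore measure only how these libraries vary, and that variation may be technical. The RNA came from bulk cells, in which more cells of a kind and more RNA per cell cannot be told apart.

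RUNX proteins bind DNA through a Runt domain, and the CBFB protein, which does not contact DNA itself, joins that domain and strengthens its hold. RUNX1 is best known for founding blood stem cells, RUNX2 for bone and cartilage formation, and RUNX3 for sensory neurons, T lymphocytes and gut epithelium, where its promoter is often methylated in cancer. Each RUNX gene is transcribed from a distal and a proximal promoter, which give proteins that differ at their N-terminus. The counts pool both, so the promoters in use were not measured here.

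RUNX1 (ENSG00000159216) lies on the minus strand at chr21:34787801-36004667, RUNX2 (ENSG00000124813) on the plus strand at chr6:45328157-45664349, RUNX3 (ENSG00000020633) on the minus strand at chr1:24899511-24965121 and CBFB (ENSG00000067955) on the plus strand at chr16:67029116-67101058, all in GRCh38 with GENCODE 29 models. Promoter windows from RefSeq on GRCh38.p14 were used for RUNX1, RUNX2 and RUNX3, with 2 start sites each for RUNX2 and RUNX3, and a CBFB promoter was not analysed here. RUNX1 had only 1 window, which lies inside its gene model, so its other promoter was not examined. The 250 bases before each start are shown because DNA methylation falls on CG pairs, which are written in capitals, and the same gene can have start sites of opposite kinds. They are read 5′ to 3′ on the gene's strand. The GENCODE models of RUNX2 and RUNX3 begin inside the distal windows, upstream of the RefSeq starts.
RUNX2 distal, chr6:45328080-45328329: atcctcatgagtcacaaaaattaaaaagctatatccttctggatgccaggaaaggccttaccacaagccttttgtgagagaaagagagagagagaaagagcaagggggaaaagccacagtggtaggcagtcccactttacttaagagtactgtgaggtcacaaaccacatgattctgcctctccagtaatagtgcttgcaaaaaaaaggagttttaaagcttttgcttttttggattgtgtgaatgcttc
RUNX2 proximal, chr6:45422025-45422274: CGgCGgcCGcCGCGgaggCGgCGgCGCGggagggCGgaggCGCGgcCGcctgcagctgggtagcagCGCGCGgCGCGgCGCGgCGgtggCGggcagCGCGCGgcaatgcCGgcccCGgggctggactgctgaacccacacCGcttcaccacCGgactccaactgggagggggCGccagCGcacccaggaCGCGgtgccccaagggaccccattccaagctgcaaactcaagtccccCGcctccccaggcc
RUNX3 distal, chr1:24965011-24965260: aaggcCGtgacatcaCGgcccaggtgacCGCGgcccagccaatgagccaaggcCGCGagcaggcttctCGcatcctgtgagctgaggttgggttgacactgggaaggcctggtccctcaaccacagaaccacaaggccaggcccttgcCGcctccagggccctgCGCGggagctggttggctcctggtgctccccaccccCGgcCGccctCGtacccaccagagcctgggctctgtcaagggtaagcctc
RUNX3 proximal, chr1:24930277-24930526: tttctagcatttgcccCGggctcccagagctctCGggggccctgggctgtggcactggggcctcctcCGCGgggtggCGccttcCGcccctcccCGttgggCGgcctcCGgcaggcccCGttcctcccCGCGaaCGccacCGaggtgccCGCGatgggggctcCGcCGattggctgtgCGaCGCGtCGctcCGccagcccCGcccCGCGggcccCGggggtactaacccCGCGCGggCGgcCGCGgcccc
RUNX1, chr21:34888700-34888949: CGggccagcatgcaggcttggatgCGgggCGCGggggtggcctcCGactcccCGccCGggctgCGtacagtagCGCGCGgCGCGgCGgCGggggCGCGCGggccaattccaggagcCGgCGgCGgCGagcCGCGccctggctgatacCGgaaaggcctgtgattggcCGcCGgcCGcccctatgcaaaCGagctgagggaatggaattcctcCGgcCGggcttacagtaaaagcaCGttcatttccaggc

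The RUNX2 distal window held 0 CG pairs and 41.6% G or C. The RUNX2 proximal window, 93.9 kb downstream, held 34 CG pairs and 78.0% G or C, and 93.2% of the 35116 windows of the same length in RefSeq held fewer pairs. RUNX3 had 13 CG pairs at its distal start and 33 at its proximal start, 34.7 kb away, while the RUNX1 window held 32. Over all windows the median was 11 CG pairs, and 6.06% had 0. Methylation itself was not measured in this series.

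**Figure D1:**
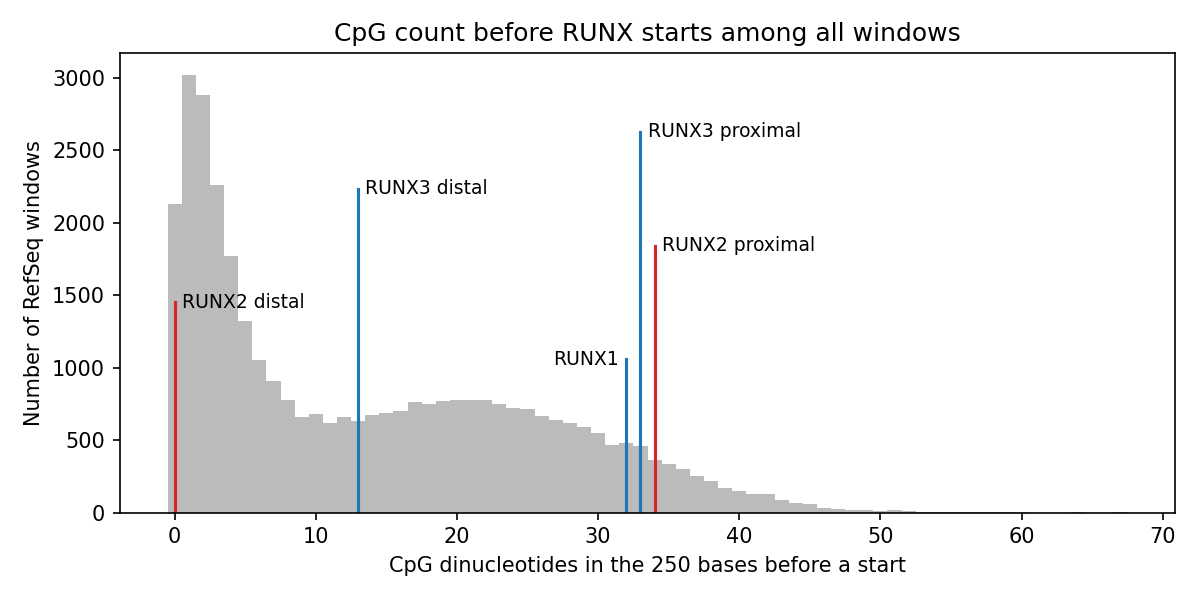
Number of CG pairs in the 250 bases before the start site, with grey bars for how many of the 35116 RefSeq windows hold each number and lines for the 5 RUNX windows. The RUNX2 distal window stands at 0, while the RUNX1 window and the proximal windows of RUNX2 and RUNX3 stand at 32 to 34, against a median of 11.

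The windows were also searched on both strands for TGTGGT, a form of the core RUNX motif, and its reverse complement ACCACA. The search was made because RUNX2 protein is known to bind its own distal promoter. Other forms of the motif were not searched, so matches here are to this form only. The RUNX2 distal window held 2 matches, with 2 more among the first 50 transcribed bases, and the RUNX3 distal window held 2. No match lay in the only RUNX1 window examined or in either proximal window. Of all windows 10.98% held at least 1 match and 0.971% held at least 2. The stretches are shown with the motif in capitals to let the paired sites of RUNX2 and RUNX3 be compared, and a match describes letters and not binding.
RUNX2, chr6:45328129-45328154: gaaaggccttACCACAagccttttgt
RUNX2, chr6:45328233-45328258: gaggtcacaaACCACAtgattctgcc
RUNX2, chr6:45328338-45328367: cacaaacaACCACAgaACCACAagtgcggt
RUNX3, chr1:24965120-24965149: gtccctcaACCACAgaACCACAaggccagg
The third RUNX2 stretch and the RUNX3 stretch each hold 2 copies of the motif, separated by the same letters.

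Totals ran from 18.8 to 33.7 M counts a library (M, 1e6), and were highest on average in Control (30.6 ± 3.42 M, SD, n = 3). Levels are counts per M counts (CPM) of the scaled library, and a gene with 0 counts could reach 0.0891 to 0.16 CPM. The targeted genes followed the labels, with DNMT1 at 0.55 of Control in its knockdown and DNMT3B at 0.499 of Control in its own. Of 10 colon epithelial markers 7 passed the low-count filter. KRT8, KRT18, EPCAM, CDH1 and CDX2, the gut transcription factor, were well above the floor, with CDX2 at 38.2 to 40.1 CPM as group means. KRT20, a colon keratin that also passed the filter, was low, at 1.03 CPM in Control. It rose to 1.63 CPM with DNMT1 knockdown and 2.02 CPM with DNMT3B knockdown (edgeR adjusted p = 0.00751 and 5.32e-05). The first rise was not called when every library was thinned to the smallest total (edgeR adjusted p = 0.059). EPCAM fell from 285 CPM in Control to 249 with DNMT1 knockdown and 235 with DNMT3B knockdown (edgeR adjusted p = 0.000101 and 2.46e-07). Of the 7 tested markers, 2 were called higher and 1 lower with DNMT1 knockdown, and 3 higher and 1 lower with DNMT3B knockdown. The shares over all tested genes were 21.0% and 20.8%, then 23.1% and 24.6%. CEACAM5, LGALS4 and CDX1 lay at or near 0, with group means up to 0.295 CPM. HT29 is known to express CEACAM5 and LGALS4, and the identity of the line was not tested, so the name HT29 is used as a label.

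RUNX2 was the member whose level differed most between groups. It stood at 2.48, 3.35 and 2.25 CPM in the 3 Control libraries, from 83, 90 and 70 counts. In DNMT1 knockdown it stood at 17.0, 18.2 and 20.2 CPM, from 411, 428 and 486 counts. In DNMT3B knockdown it stood at 22.9, 24.8 and 23.2 CPM, from 559, 460 and 606 counts. Every knockdown library lay above every Control library, and every DNMT3B knockdown library above every DNMT1 knockdown library. How many of all tested genes separate by library in this way was not counted, here or for RUNX1 and CBFB below.

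The means were 2.69 ± 0.583 CPM in Control, 18.5 ± 1.63 in DNMT1 knockdown and 23.6 ± 1.01 in DNMT3B knockdown (SD, n = 3). RUNX2 was therefore 6.94-fold higher than Control in DNMT1 knockdown and 8.85-fold higher in DNMT3B knockdown, 2.79 and 3.15 on the log2 scale. Both values use the same 3 Control libraries. From the highest rise down, RUNX2 ranked 37 and 23 among the 16660 tested genes. Its level passed 23.1% of tested genes in Control, 46.9% in DNMT1 knockdown and 52.5% in DNMT3B knockdown, so the rise took it from the low end to the middle of the expressed genes.

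The knockdowns themselves differed in RUNX2. It was 1.28-fold lower in DNMT1 than in DNMT3B knockdown (log2 fold change -0.35 ± 0.071, SE; 95% interval -0.495 to -0.207; edgeR quasi-likelihood adjusted p = 0.000129), with no overlap between libraries. In this comparison 20.9% of all tested genes were called lower and 24.3% higher, a call being a Benjamini-Hochberg adjusted p under 0.05.

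**Figure D2:**
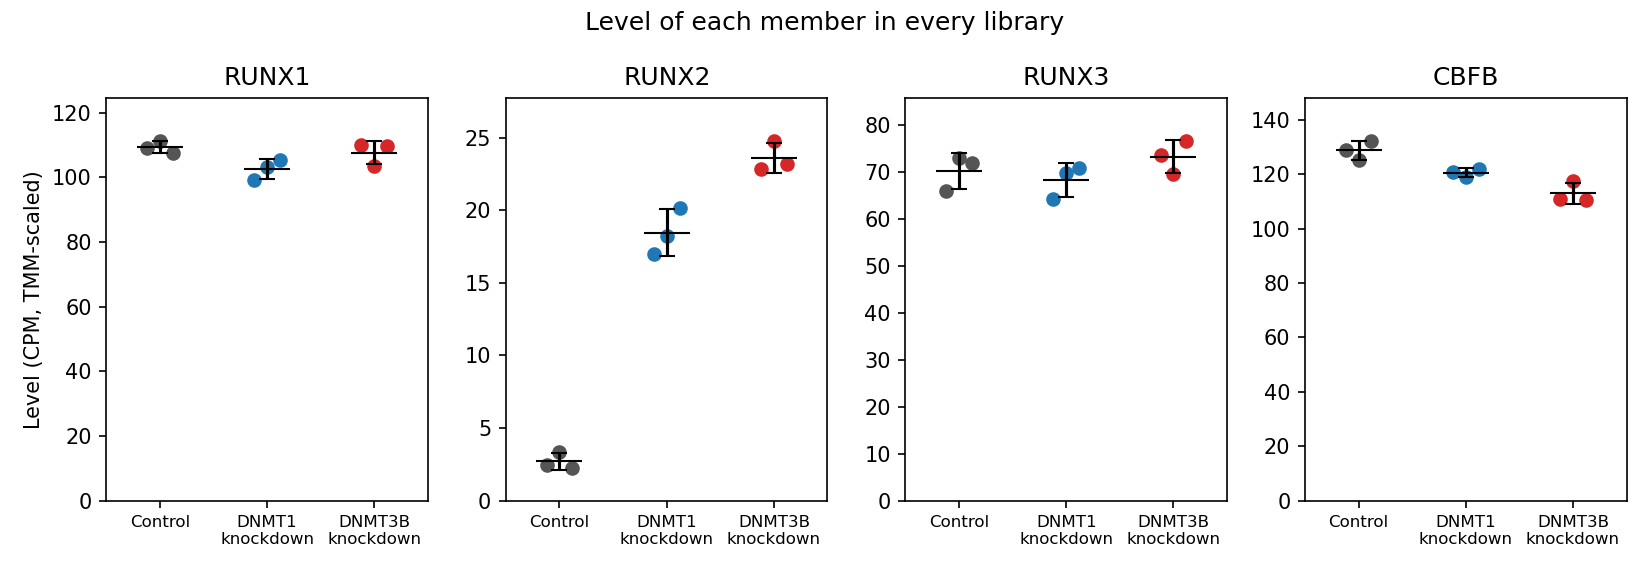
CPM of RUNX1, RUNX2, RUNX3 and CBFB in each of the 9 libraries, with points for libraries and bars for the group mean ± SD (n = 3). RUNX2 rises from 2.25 to 3.35 CPM in Control to 17.0 to 20.2 and 22.9 to 24.8 CPM in the knockdowns, while CBFB steps down from Control through DNMT1 to DNMT3B knockdown.

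RUNX1, the blood stem cell factor, changed little. Control libraries held 109.2, 111.2 and 107.6 CPM, DNMT1 knockdown libraries 99.3, 103.2 and 105.3 CPM, and DNMT3B knockdown libraries 109.9, 103.5 and 109.6 CPM. All 3 DNMT1 knockdown libraries lay below all 3 Control libraries, and the DNMT3B knockdown libraries overlapped both other groups. The fall with DNMT1 knockdown was 0.09 on the log2 scale (log2 fold change -0.09 ± 0.036; 95% interval -0.165 to -0.0169) and just passed the test (edgeR adjusted p = 0.0433), in a comparison in which 20.8% of tested genes were called lower and 21.0% higher. That call was lost with DESeq2 (adjusted p = 0.0667), without TMM scaling (edgeR adjusted p = 0.0792), and when any 1 of the 3 Control libraries, DNMT1 knockdown replicates 1 and 2 or DNMT3B knockdown replicates 1 and 3 was left out (edgeR adjusted p 0.0504 to 0.213).

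Against Control, RUNX1 in DNMT3B knockdown differed by -0.02 ± 0.036 on the log2 scale (95% interval -0.0939 to 0.0544; edgeR adjusted p = 0.687). Between the knockdowns it differed by -0.07 ± 0.037 (95% interval -0.147 to 0.00446; edgeR adjusted p = 0.119). Neither comparison passed the test. Without DNMT3B knockdown replicate 2 the first turned to 0.0099 and the second was called (edgeR adjusted p = 0.0492). The intronic transcript RUNX1-IT1 had 1 to 4 counts per library, too few to test, and RUNX1T1, the corepressor gene known as ETO, had 0 counts in all 9 libraries.

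RUNX3, the member known from gut epithelium, passed no test. Control libraries held 65.8, 72.9 and 71.8 CPM, DNMT1 knockdown libraries 64.2, 69.6 and 70.8 CPM, and DNMT3B knockdown libraries 73.6, 69.6 and 76.5 CPM, with overlap between all groups. The log2 fold change was -0.04 ± 0.045 in DNMT1 knockdown (95% interval -0.131 to 0.0534; edgeR adjusted p = 0.524) and 0.07 ± 0.045 in DNMT3B knockdown (95% interval -0.0251 to 0.158; edgeR adjusted p = 0.229). Between the knockdowns RUNX3 differed by -0.11 ± 0.046 (95% interval -0.2 to -0.0112; edgeR adjusted p = 0.0624). This last difference passed the threshold when Control replicate 1 or 2, DNMT1 knockdown replicate 3 or DNMT3B knockdown replicate 2 was left out (edgeR adjusted p 0.0217 to 0.0495). Without DNMT1 knockdown replicate 1 the change with DNMT1 knockdown turned to 0.0071. The change with DNMT3B knockdown ranged from 0.024 without Control replicate 1 to 0.10 without DNMT3B knockdown replicate 2. RUNX3 was already well expressed in Control, where its level passed 76.2% of tested genes.

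CBFB fell in both knockdowns, and more with DNMT3B. Control libraries held 129.1, 125.4 and 132.2 CPM, DNMT1 knockdown libraries 120.9, 118.9 and 122.0 CPM, and DNMT3B knockdown libraries 111.0, 117.5 and 110.5 CPM. The 3 groups did not overlap, and how often tested genes separate in this way was not counted. With DNMT3B knockdown CBFB fell to 0.875 of Control (log2 fold change -0.19 ± 0.036; edgeR adjusted p = 4.01e-05), in a comparison in which 24.6% of tested genes were called lower and 23.1% higher. This call held under every alternative run, with adjusted p from 9.49e-07 to 0.00127.

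The smaller CBFB fall with DNMT1 knockdown (log2 fold change -0.10 ± 0.035; edgeR adjusted p = 0.0279) was lost when Control replicate 1 or 3 or DNMT1 knockdown replicate 1 or 2 was left out (edgeR adjusted p 0.0606 to 0.145). CBFB was higher in DNMT1 than in DNMT3B knockdown by 0.10 ± 0.036 on the log2 scale (edgeR adjusted p = 0.0308), a call lost with DESeq2 (adjusted p = 0.0684) and without DNMT1 knockdown replicate 1 or 3 or DNMT3B knockdown replicate 1 or 3 (edgeR adjusted p 0.0595 to 0.141). RUNX2 and CBFB thus moved in opposite directions, the DNA-binding subunit up from a low level and its partner down from a high one. Over all tested genes the median log2 fold change was -0.0025 with DNMT1 knockdown and 0.0023 with DNMT3B knockdown, which the scaling holds near 0, so all changes here are relative to the other genes.

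**Figure D3:**
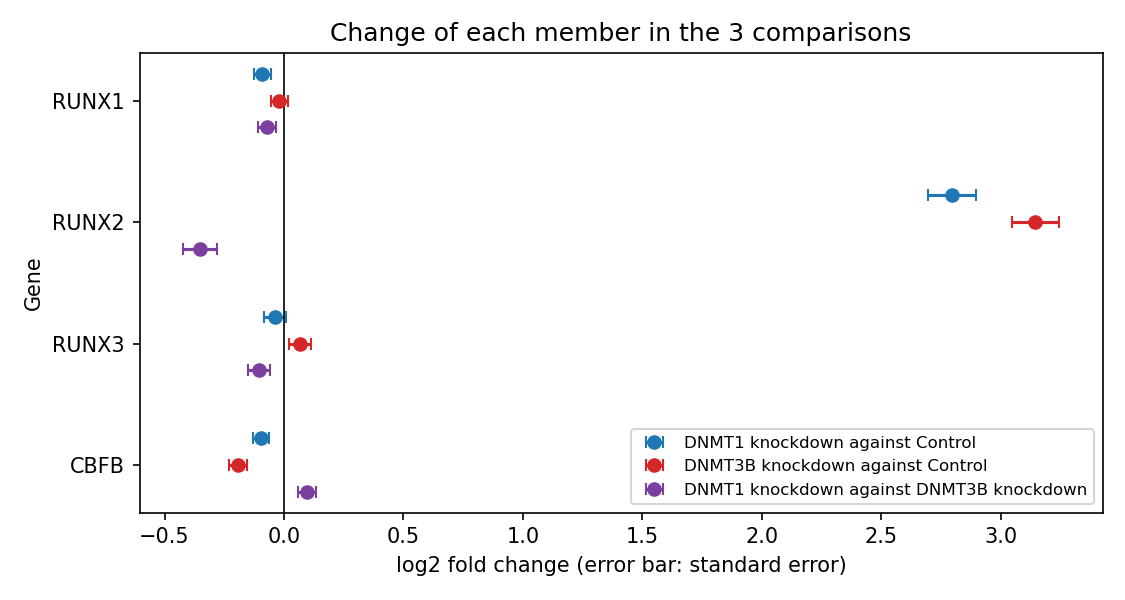
Log2 fold change of the 4 genes (x axis) in each of the 3 comparisons, with points for the edgeR estimate and bars for its standard error. RUNX2 lies at 2.79 and 3.15 against Control, and the other 3 genes lie between -0.19 and 0.07 there.

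Levels of different genes were compared per kb of exon, since a longer gene collects more counts. By the union of annotated exons, Control cells held 15.5 ± 0.845 CPM per kb of RUNX3, 7.02 ± 0.117 of RUNX1 and 0.329 ± 0.0712 of RUNX2 (SD, n = 3). RUNX2 made up 1.43 ± 0.273% of the summed RUNX level in Control, 9.41 ± 0.43% in DNMT1 knockdown and 11.1 ± 0.83% in DNMT3B knockdown. It remained the lowest of the 3 in every library. Per kb, RUNX2 RNA equalled 2.11% of RUNX3 RNA in Control, 14.9% in DNMT1 knockdown and 17.9% in DNMT3B knockdown.

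RUNX3 stood above RUNX1 in all 9 libraries by either length, but the size of the gap depended on the length used. By the longest annotated transcript, Control cells held 16.2 ± 0.88 CPM per kb of RUNX3 and 15.03 ± 0.251 of RUNX1, with overlapping ranges, and RUNX1 made up 47.5% of the sum where the union of exons gave 30.7%. The RUNX2 share was near the same by either length, at 1.44%, 9.52% and 11.3% of the sum by the longest transcript. These shares describe RNA, and RUNX2 entered them with its rise already known, so they were not tested.

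CBFB is needed by all 3 RUNX proteins, and its level was set beside their sum. The summed RUNX level was 22.9 ± 0.919 CPM per kb in Control, 23.9 ± 1.15 in DNMT1 knockdown and 26.0 ± 0.872 in DNMT3B knockdown. CBFB stood at 31.2 ± 0.835, 29.2 ± 0.382 and 27.4 ± 0.948 CPM per kb in the same order. The ratio of CBFB to the RUNX sum was thus 1.37 ± 0.0761 in Control, 1.22 ± 0.0607 in DNMT1 knockdown and 1.05 ± 0.0718 in DNMT3B knockdown. The highest ratio in DNMT3B knockdown lay below the lowest in Control. The sum includes RUNX2, which was picked for its rise. RUNX2 went from 0.329 CPM per kb in Control to 2.25 in DNMT1 knockdown and 2.88 in DNMT3B knockdown. Part of the lower ratio was therefore fixed in advance, and the ratio was not tested.

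**Figure D4:**
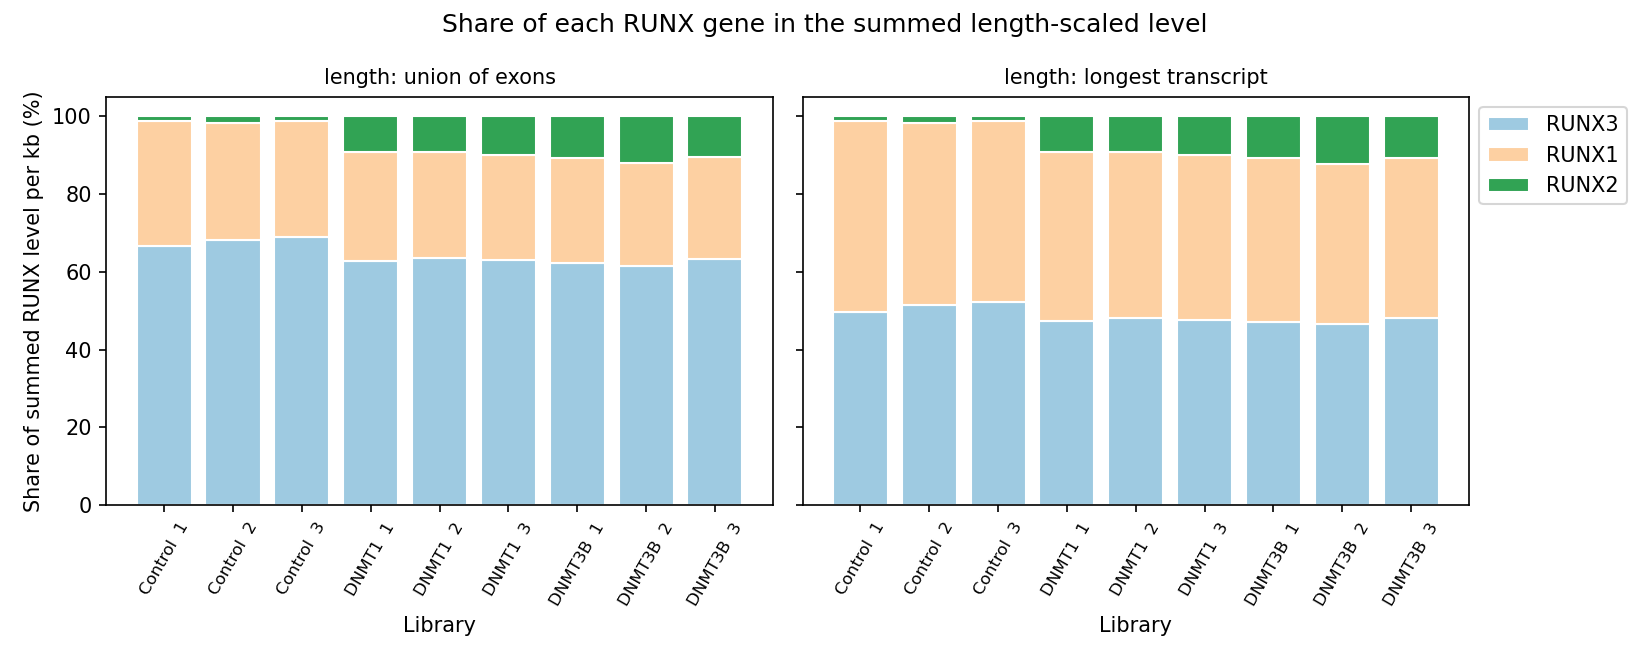
Share of RUNX1, RUNX2 and RUNX3 in their summed CPM per kb (y axis, percent) in each of the 9 libraries, by the union of exons on the left and by the longest transcript on the right. The RUNX2 share is 1.19 to 1.73% in Control and 9.14 to 12.1% in knockdown libraries on the left, while the size of the gap between RUNX3 and RUNX1 depends on the length used.

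The genes whose log2 CPM over the 9 libraries followed RUNX2 most closely were NLRP1, an inflammasome sensor (Pearson r = 0.997), LIMA1, an actin-binding protein (0.995), KRT7, a simple-epithelium keratin (0.995), PTP4A2, a phosphatase (0.994), and GRIN2B, a glutamate receptor subunit (0.994). The libraries fall into 3 groups and share their depth and scaling across genes, so these correlations mostly describe group means. GRIN2B had nearly the same folds as RUNX2, with 1.19 CPM in Control, 8.27 in DNMT1 knockdown and 10.5 in DNMT3B knockdown. PTP4A2 followed the same order over a narrow range, from 228 CPM in Control to 258 and 259.

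Nearest to CBFB were BCAP31, an endoplasmic reticulum sorting protein (r = 0.978), ECI1, a mitochondrial fatty acid oxidation enzyme (0.977), and PXMP2, a peroxisomal membrane channel (0.977). BCAP31 stood at 139 CPM in Control, 122 in DNMT1 knockdown and 111 in DNMT3B knockdown. For RUNX1 the nearest were FOXK1 (0.962), ZFPM2 (0.952) and BAZ2A (0.940), and for RUNX3 they were TIMM23B-AGAP6 (0.966), LUC7L2 (0.953) and SNRNP70 (0.940). TIMM23B-AGAP6 is a readthrough symbol whose reads can belong to its component genes, so its value is uncertain.

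Neighbouring genes did not share the size of the RUNX2 rise. Within 500 kb of RUNX2, 4 annotated genes were in the table and tested. SUPT3H, a transcription coactivator gene on the opposite strand that overlaps the RUNX2 distal start, stood at 8.83 ± 0.0497 CPM in Control, 8.12 ± 0.681 in DNMT1 knockdown and 8.99 ± 0.823 in DNMT3B knockdown (edgeR adjusted p 0.263 and 0.757 against Control). Whether counting used strand is not given in the sources used here, so reads of overlapping genes cannot be told apart.

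CLIC5, a chloride channel family gene 216.5 kb from RUNX2, rose with DNMT3B knockdown from 2.02 ± 0.115 to 3.19 ± 0.157 CPM (log2 fold change 0.65, edgeR adjusted p = 0.000229) and stood at 1.6 ± 0.218 CPM in DNMT1 knockdown (edgeR adjusted p = 0.1). ENPP4, 465.6 kb away, fell with DNMT3B knockdown (log2 fold change -0.37, edgeR adjusted p = 3.19e-06). ENPP5, 494.8 kb away, was higher with DNMT1 knockdown (0.27, edgeR adjusted p = 0.00996), a call lost without DNMT1 knockdown replicate 3 (edgeR adjusted p = 0.0952).

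The shares called over all tested genes were 21.0% higher and 20.8% lower with DNMT1 knockdown, and 23.1% higher and 24.6% lower with DNMT3B knockdown, and the counts around RUNX1, RUNX3 and CBFB are given beside these. Near RUNX1, 1 of 9 tested neighbours was called higher and 2 lower with DNMT1 knockdown, and 0 higher and 3 lower with DNMT3B knockdown. CBR3, a carbonyl reductase gene, was the largest of these, from 2.6 CPM in Control to 1.33 in DNMT3B knockdown (log2 fold change -0.999, edgeR adjusted p = 3.81e-05). Near RUNX3, 4 of 12 tested neighbours were called higher and 1 lower in each knockdown. The DNMT3B knockdown calls there included SRRM1, a splicing coactivator (0.29, edgeR adjusted p = 3.55e-07).

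In the gene-dense stretch around CBFB, 11 of 36 tested neighbours were called higher and 5 lower with DNMT1 knockdown, and 8 higher and 9 lower with DNMT3B knockdown. CMTM4 fell with DNMT3B knockdown from 193 to 119 CPM (log2 fold change -0.70, edgeR adjusted p = 3.4e-16). Over all tested genes 21.0% were called higher and 20.8% lower with DNMT1 knockdown, and 23.1% and 24.6% with DNMT3B knockdown, so the DNMT3B counts around CBFB lay near the share of all genes. TK2, the mitochondrial thymidine kinase, fell in both knockdowns (-0.35 and -0.50, edgeR adjusted p = 3.7e-06 and 6.4e-09). Between the knockdowns, 16 of the 36 CBFB neighbours were called higher in DNMT1 than in DNMT3B knockdown and 2 lower. In that comparison 24.3% of all tested genes were called higher and 20.9% lower. The median log2 fold change of the neighbours there was 0.12, and that of CBFB itself was 0.10. What the neighbours share with CBFB was not tested.

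RUNX proteins repress or activate with the help of cofactors. Of 16 listed corepressor genes 14 were tested, and 6 were called higher and 0 lower with DNMT1 knockdown, where 21.0% and 20.8% of all tested genes were. CBFA2T3, a relative of RUNX1T1, rose from 21.6 ± 0.503 to 31.5 ± 2.47 CPM (log2 fold change 0.54, edgeR adjusted p = 2.21e-09). TLE3, a Groucho-type corepressor that binds the RUNX C-terminus, rose from 124 ± 1.34 to 155 ± 3.06 CPM (0.32, edgeR adjusted p = 8.73e-09), and TLE1 and NCOR1 also rose. Without Control replicate 2, 1 corepressor was called lower. TLE4 and RUNX1T1 had 0 counts in all libraries.

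With DNMT3B knockdown 4 of the 14 corepressor genes were called higher and 4 lower, near the 23.1% and 24.6% of all tested genes. HDAC4, a deacetylase known to restrain RUNX2 in cartilage, fell from 49.2 ± 0.436 to 28.05 ± 0.905 CPM (log2 fold change -0.81 ± 0.045, edgeR adjusted p = 8.58e-16) and stood at 51.5 ± 0.489 CPM in DNMT1 knockdown (edgeR adjusted p = 0.21). TLE3 rose here too (0.31, edgeR adjusted p = 1.57e-08), while TLE1 rose with DNMT1 and fell with DNMT3B knockdown, a difference of 0.37 between them (edgeR adjusted p = 1.21e-08). The median log2 fold change of the tested corepressors was 0.06 and 0.03 in the DNMT1 and DNMT3B knockdowns, against -0.0025 and 0.0023 over all genes.

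Among coactivators and DNA-binding partners, 21 of 24 were tested, with 7 called higher and 3 lower in DNMT1 knockdown and 10 higher and 7 lower in DNMT3B knockdown. The shares over all tested genes were 21.0% and 20.8%, then 23.1% and 24.6%. SMAD3, a TGF-beta signal transducer that binds RUNX proteins, rose from 148 ± 3.3 CPM to 229 ± 4.34 and 197 ± 3.55 (log2 fold changes 0.63 and 0.41, edgeR adjusted p = 2.36e-16 and 9.1e-12). EP300, an acetyltransferase, rose from 133 ± 2.32 CPM to 211 ± 10.3 and 180 ± 12.2 (0.67 and 0.44, edgeR adjusted p = 9.18e-15 and 2.13e-10). YAP1, a Hippo pathway coactivator, fell with DNMT3B knockdown (-0.33, edgeR adjusted p = 6.01e-10), as did MYB, a progenitor cell factor (-0.56, edgeR adjusted p = 1.98e-10). The list medians were 0.02 and -0.01, near those of all genes, and DLX5, a bone partner of RUNX2, had 0 counts throughout.

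RUNX proteins are also controlled by ubiquitin ligases and kinases. Of 12 such genes, all tested, 2 were called higher and 5 lower with DNMT1 knockdown, and 2 higher and 4 lower with DNMT3B knockdown, where all tested genes gave 21.0% and 20.8%, then 23.1% and 24.6%. MDM2, the ubiquitin ligase best known for p53, had the smallest adjusted p of the list and went opposite ways, from 333 ± 6.53 CPM in Control to 247 ± 5.27 with DNMT1 knockdown (log2 fold change -0.43, edgeR adjusted p = 3.32e-12) and 445 ± 11.8 with DNMT3B knockdown (0.42, edgeR adjusted p = 3.39e-12). SMURF2, a ubiquitin ligase of the TGF-beta pathway, fell from 428 ± 3.66 CPM to 351 ± 11.5 and 338 ± 9.02 (log2 fold changes -0.28 and -0.34, edgeR adjusted p = 2.68e-08 and 5.23e-10). STUB1, a chaperone-linked ligase, fell from 23.4 ± 1.26 CPM to 19.7 ± 0.842 and 16.5 ± 0.914 (-0.25 and -0.50, edgeR adjusted p = 0.00113 and 4.38e-08). ITCH, another ligase, rose with DNMT3B knockdown (0.24, edgeR adjusted p = 2.59e-07), and HIPK2, a kinase, rose with DNMT1 knockdown (0.23, edgeR adjusted p = 3.68e-06). The count of 2 higher with DNMT1 knockdown became 1 without Control replicate 2 or DNMT1 knockdown replicate 2.

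Known skeletal targets of RUNX2 held both higher and lower calls. Of 25 listed genes 14 had enough counts to test, so the counts describe only those. With DNMT1 knockdown 5 were called higher and 3 lower, and with DNMT3B knockdown 4 were called higher and 4 lower. Over all tested genes the shares were 21.0% and 20.8% with DNMT1 knockdown, and 23.1% and 24.6% with DNMT3B knockdown. Their median log2 fold changes were 0.09 and 0.03. The count of 5 became 3 without Control replicate 1.

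COL1A1, the type I collagen chain of bone matrix, rose in both knockdowns, from 17.6 ± 2.15 CPM to 21.5 ± 2.29 with DNMT1 (log2 fold change 0.30, edgeR adjusted p = 0.00123) and to 27.5 ± 0.611 with DNMT3B (0.65 ± 0.07, edgeR adjusted p = 3.56e-09). ALPL, the phosphatase of mineralizing tissue, rose with DNMT3B knockdown from 0.663 ± 0.0587 to 1.76 ± 0.196 CPM (1.41 ± 0.22, edgeR adjusted p = 2.68e-06) and stood at 0.755 ± 0.244 CPM with DNMT1 knockdown (edgeR adjusted p = 0.635). The difference of ALPL between the knockdowns passed the test (log2 fold change -1.24, edgeR adjusted p = 3.49e-05). COL10A1, the collagen of hypertrophic cartilage, fell in both (-0.31 and -0.49, edgeR adjusted p = 0.0128 and 0.000221). Among list members at higher levels, FGFR1 rose with DNMT1 knockdown (0.29, edgeR adjusted p = 2.37e-07). VEGFA fell with DNMT1 knockdown (-0.19, edgeR adjusted p = 9.05e-05) and FGFR3 fell with DNMT3B knockdown (-0.50, edgeR adjusted p = 8.47e-09).

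SPP1, the gene of the bone protein osteopontin, moved in opposite directions, by -0.70 with DNMT1 knockdown (edgeR adjusted p = 0.00467) and by 0.48 with DNMT3B knockdown (edgeR adjusted p = 0.0151), from a Control level of 2.44 ± 0.767 CPM. The first call was lost without Control replicate 1 (edgeR adjusted p = 0.12), and the second was not examined under the alternatives. BGLAP, the osteocalcin gene and a textbook RUNX2 target, stood at 0.548, 0.488 and 0.304 CPM in Control, DNMT1 and DNMT3B knockdown, and neither difference from Control passed the test (edgeR adjusted p = 0.709 and 0.0599).

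The 11 listed skeletal genes that were not tested included SP7, the osteoblast factor downstream of RUNX2, along with IBSP, MMP13, MMP2, TNFRSF11B, DMP1, PTH1R and ITGBL1. COL1A2, TNFSF11 and SOST had 0 counts in every library. The group means of the 8 with counts ran up to 0.298 CPM, reached by ITGBL1 in DNMT3B knockdown, and small changes among them were not detectable at this depth.

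**Figure D5:**
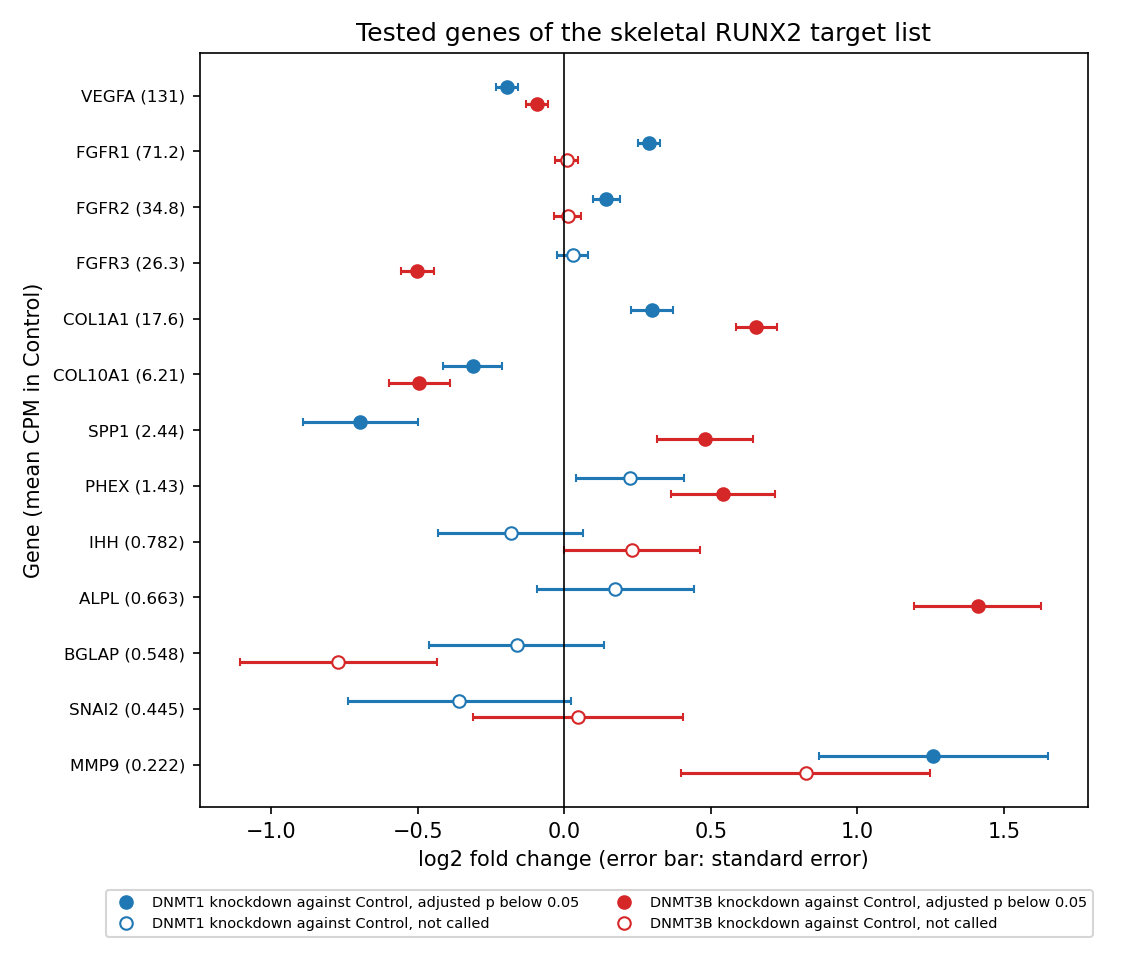
Log2 fold change against Control (x axis) of 13 of the 14 tested skeletal RUNX2 target genes, ordered by mean CPM in Control, with bars for the standard error and filled points for an adjusted p below 0.05. With DNMT3B knockdown ALPL lies furthest to the right at 1.41, and called genes lie on both sides of 0 in both knockdowns.

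Known RUNX1 targets of blood cells were often too low to test. Of 21 listed genes 11 were tested, with 3 called higher and 2 lower in DNMT1 knockdown and 4 higher and 2 lower in DNMT3B knockdown, against 21.0% and 20.8%, then 23.1% and 24.6%, of all tested genes. MYL9, a myosin light chain gene regulated by RUNX1 in platelets, rose in both (log2 fold changes 0.35 and 0.22, edgeR adjusted p = 4.91e-07 and 0.000408), and so did PRKCQ, a T cell and platelet kinase gene (0.53 and 0.36, edgeR adjusted p = 4.88e-06 and 0.000881). CEBPA, a myeloid factor, fell in both (-0.27 and -0.24, edgeR adjusted p = 0.00259 and 0.00672). The list medians were 0.01 and 0.01, IL3 and PF4 had 0 counts throughout, and the 4 higher with DNMT3B knockdown became 2 without DNMT3B knockdown replicate 1 or with DESeq2.

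Genes tied to RUNX3 in epithelium moved in both directions. Of 12 listed genes 10 were tested, with 4 called higher and 5 lower in each knockdown, and medians of -0.03 and -0.08. All tested genes gave 21.0% higher and 20.8% lower with DNMT1 knockdown, and 23.1% and 24.6% with DNMT3B knockdown. TGFBR2, the TGF-beta type II receptor, rose from 23.7 ± 0.53 CPM to 33.8 ± 0.665 and 37.9 ± 0.63 (log2 fold changes 0.51 and 0.68, edgeR adjusted p = 3.77e-10 and 4.35e-13). JAG1, a Notch ligand that RUNX3 is known to repress, rose from 65.2 ± 1.56 CPM to 104 ± 6.79 and 80.2 ± 3.19 (0.67 and 0.30, edgeR adjusted p = 2.26e-14 and 1.3e-06). BCL2L11, the gene of the pro-apoptotic protein BIM, rose in both as well (0.36 and 0.14, edgeR adjusted p = 2.4e-09 and 0.00293). The falls called included VEGFA with DNMT1 knockdown (-0.19, edgeR adjusted p = 9.05e-05) and AKT1 with DNMT3B knockdown (-0.13, edgeR adjusted p = 0.00193).

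HES1, a Notch target, and CDKN1A, the p21 cell cycle inhibitor, went opposite ways in the knockdowns. HES1 rose with DNMT1 and fell with DNMT3B knockdown (log2 fold changes 0.27 and -0.51, edgeR adjusted p = 0.000131 and 1.4e-08). CDKN1A fell with DNMT1 knockdown (-0.16, edgeR adjusted p = 0.000919) and rose with DNMT3B knockdown, from 146 to 253 CPM. The count of 5 lower with DNMT3B knockdown became 3 without Control replicate 2 or 3 or DNMT3B knockdown replicate 1 or 3. RUNX3 itself passed no test in any of the 3 comparisons.

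Markers of other cells that express RUNX genes were set beside these values. Summed over 10 genes, leukocyte markers stood at 1.22 to 1.82 CPM in Control, 1.04 to 1.49 CPM with DNMT1 knockdown and 1.51 to 2.05 CPM with DNMT3B knockdown, and 0 of 2 tested members were called. Osteoblast markers summed to 18.8 to 22.5, 22.2 to 26.9 and 31.1 to 32.3 CPM in the same order, with 1 of 4 tested members called higher with DNMT1 knockdown and 3 of 4 with DNMT3B knockdown, beside 21.0% and 23.1% of all tested genes. COL1A1 made up most of the osteoblast sum, and SP7, IBSP and DMP1 were too low to test. The osteoblast call of PHEX with DNMT3B knockdown was lost with DESeq2 (adjusted p = 0.0514) and without Control replicate 1 (edgeR adjusted p = 0.0596). Stromal markers, COL1A1 among them, summed to 25.8 to 30.4, 29.4 to 34.1 and 38.9 to 41.6 CPM, with COL1A2 and DCN at 0 in every library. Of 3 tested stromal members, 1 was called higher and 1 lower with DNMT1 knockdown, and 2 higher and 0 lower with DNMT3B knockdown. Endothelial markers summed to 4.86 to 5.55, 4.09 to 5.24 and 5.82 to 6.79 CPM. Of 4 tested endothelial members, 0 were called higher and 1 lower with DNMT1 knockdown, and 1 higher and 1 lower with DNMT3B knockdown. The shares over all tested genes were 21.0% and 20.8%, then 23.1% and 24.6%. Whether these marker sums have a part in the RUNX2 rise was not tested.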

How the data were processed

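The data are raw read counts per gene symbol in 9 libraries of rRNA-depleted total RNA, 3 per group, which the authors deposited as 1 unscaled table, per the file header. STAR, featureCounts, DESeq2 and the build GRCh38 are named, per the submitters' processing notes. Tool settings, gene annotation and strandedness were not stated in the sources used here. Columns were matched to samples by group and replicate number in the labels, and 0 columns lacked a sample.

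edgeR 4.0.16 (R 4.3.3) was used for the counts. A filter on low counts (filterByExpr, with the groups) left 16660 of 25886 symbols, and 3310 symbols had no count. After TMM scaling, 1 quasi-likelihood fit took in all 9 libraries, with 6 residual and 25.4 prior degrees of freedom and a biological coefficient of variation of 2.96%. Adjusted p-values are Benjamini-Hochberg over all tested genes, with a threshold of 0.05. Levels are CPM of the scaled library, log2 fold changes carry their standard error after ±, and floors cover counting error only. Chi-square values of 1.75 to 3.52 for each degree of freedom set every pair of libraries within a group apart beyond sampling noise. Each library was counted as 1 replicate, although these values cannot tell separate cultures from separate preparations of the same culture.

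The members and the 11 gene lists were chosen with earlier results of these data known, and RUNX2 was picked for its rise, so it has no test against Control. Named genes were the members, DNMT1 and DNMT3B, symbols beginning with RUNX, called genes within 500 kb, up to 5 called genes per list and comparison by smallest adjusted p, and the genes with the highest Pearson correlation of log2 CPM (prior count 2). Of these the text gives a selection. BGLAP, SP7 and other genes named without a call are list members, described whatever their result. The skeletal list counts include 1 gene that is not reported here by name. Coordinates and lengths are from GENCODE 29, in which 22994 symbols (88.8%) were found, and promoter windows are from RefSeq on GRCh38.p14. The scripts were tested on simulated data. Alternatives were DESeq2 1.42.0, limma-voom (limma 3.58.1), DESeq2 size factors, no TMM, other low-count filters, fits of the compared groups alone, a block for replicate number, and omission of each library in turn. Thinning to the smallest total was added after the library totals had been seen.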

Additional observations from a re-analysis of the deposited data

How the results depend on the processing

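The number of genes called stayed within 1.5 times its main value under every alternative, from 5718 to 7132 for DNMT1 knockdown against Control, 6706 to 8187 for DNMT3B knockdown against Control and 6323 to 7640 between the knockdowns. RUNX2 ranged from 2.69 to 2.96 and from 3.04 to 3.32 on the log2 scale against Control, and its difference between the knockdowns held under every alternative run, from -0.42 to -0.29 (adjusted p 5.42e-07 to 0.00247). The CBFB fall with DNMT3B knockdown held as well. Samples sharing a replicate number correlated at -0.248 to 0.293 in their deviations from the group means, so the numbers did not pair them. With the replicate block 6796, 7789 and 7379 genes were called in the 3 comparisons.

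The RUNX1 fall with DNMT1 knockdown was not called with DESeq2 (log2 fold change -0.093, adjusted p = 0.0667), without TMM (-0.082), with at least 1 CPM in 3 libraries (-0.085), with the replicate block (-0.091, edgeR adjusted p = 0.0608) or after thinning (-0.083, edgeR adjusted p = 0.102), and ranged from -0.11 to -0.064 with 1 library left out. RUNX1 with DNMT3B knockdown ranged from -0.031 to 0.0099 and reversed without DNMT3B knockdown replicate 2, and between the knockdowns it ranged from -0.098 to -0.048. RUNX3 with DNMT1 knockdown ranged from -0.082 to 0.0071 and reversed without DNMT1 knockdown replicate 1. Between the knockdowns RUNX3 was called with DESeq2 size factors (-0.11), no low-count filter (-0.11) and only the groups compared (-0.11), and ranged from -0.14 to -0.063. CBFB with DNMT1 knockdown ranged from -0.12 to -0.075. Between the knockdowns CBFB was not called with DESeq2 (0.091) or only the groups compared (0.089), and ranged from 0.080 to 0.12. The cause of these changes was not tested. By the longest transcript the RUNX1 share was 47.5%, 42.8% and 41.5% in Control, DNMT1 knockdown and DNMT3B knockdown, and the RUNX3 share 51.1%, 47.7% and 47.3%, because the exon union of RUNX1 is far longer than its longest transcript. Of the list counts, 1139 comparisons with an alternative stayed within 1.5 times and 49 did not.

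RUNX2 in Control rests on 70 to 90 counts per library, which limits the precision of its folds, and skeletal genes under the low-count filter could not be tested.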

Other observations

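RefSeq genes with 1 start site were grouped by matches to TGTGGT or ACCACA in the 250 bases before it. Of 8565 tested genes with no match, 19.3% were called higher and 22.4% lower with DNMT1 knockdown, and of 737 with at least 1 match 19.3% were called higher and 22.3% lower. With DNMT3B knockdown 1993 of the 8565 genes without a match were called higher and 2137 lower, as were 162 and 156 of the 737 with one. The 49 genes with at least 2 matches were called higher in 30.6% and lower in 16.3% with DNMT3B knockdown, and higher in 16.3% and lower in 22.4% with DNMT1 knockdown. The groups also differed in CG content and level, with medians of 21, 15 and 7 CG pairs and 23.8, 14.4 and 11.4 CPM in Control from no match to at least 2. These are descriptions with no test, and the part of CG content or level in them was not tested.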
